A study of Mus musculus with 10 samples.

Results

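The genes described here encode 8 proteins of endothelial cell-cell junctions: Cdh5, Esam, Cldn5, Tjp1, Ocln, F11r, Jam2 and Jam3. They were chosen by name for their known place at endothelial contacts, by no threshold on a value but with earlier results of these data known, and make up 8 of the 22828 genes kept from the series. All 8 are listed in the count tables, and 7 had enough UMIs (unique molecular identifiers, each of which marks 1 captured transcript) to be tested. Ocln did not.

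The cells came from femur and tibia of C57BL/6 mice carrying the Cdh5-mTnG reporter, which was present in every group. After collagenase digestion and removal of lineage-positive cells, cells positive for both GFP and tdTomato were sorted and sequenced with 10X 3′ chemistry. There were 5 groups of 2 libraries each: juvenile (3 weeks old, male and female), adult (12 weeks, female), aged (75 weeks, female), and 12-week-old females treated with parathyroid hormone (PTH) or with the bisphosphonate alendronate. The mice of a group were pooled and the experiment was performed once. P-values of comparisons between groups therefore measure the spread between 2 libraries of a group and not between mice. P-values of class pairs measure how far class differences vary over the 10 libraries, age and treatment included. Counts of 10 libraries and SDs over them are not those of independent mice. The promoter of Cdh5, one of the genes described, drives the reporter by which cells were sorted, and the presence of Cdh5 in the sorted cells is therefore no finding.

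Endothelial cells hold to one another through adherens and tight junctions. VE-cadherin (Cdh5) is the transmembrane adhesion protein of the adherens junction, and claudin-5 (Cldn5) and occludin (Ocln) are membrane proteins of tight junctions, where ZO-1 (Tjp1) is a scaffold. The junctional adhesion molecules JAM-A (F11r), JAM-B (Jam2) and JAM-C (Jam3) and the related ESAM (Esam) are immunoglobulin-family proteins, and JAM-B and JAM-C bind each other. Bone marrow sinusoids are known as thin-walled, permeable vessels, whereas arterial endothelium is tightly sealed.

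On GRCm38, Cdh5 lies on chromosome 8 (104101625 to 104144511, plus strand), Esam on chromosome 9 (37528078 to 37538319, plus), Cldn5 on chromosome 16 (18776847 to 18778262, plus), and Jam2 on chromosome 16 (84774123 to 84825928, plus). Tjp1 lies on chromosome 7 (65296165 to 65527781, minus), Ocln on chromosome 13 (100496507 to 100552718, minus), F11r on chromosome 1 (171437535 to 171464603, plus) and Jam3 on chromosome 9 (27097384 to 27155421, minus). Each is annotated as protein coding. Exons of Jam3 overlap Gm48796 on the opposite strand, and whether counting used strand is not given in the sources used here, so reads of this pair cannot be told apart. No exon of the other 7 overlaps another gene. The 250 bases before the start are printed for Cldn5 and Tjp1, the members with a RefSeq promoter (build GRCm38.p6) whose levels differed most with age. Capitals mark the GC box, searched as GGGCGG and its reverse complement CCGCCC. The Cldn5 sequence is chr16:18776597-18776846 (plus strand, 59.6% GC, 1 GC box) and the Tjp1 sequence is chr7:65371245-65371494 (minus strand, 63.2% GC, 2 GC boxes). The Tjp1 sequence precedes a RefSeq transcript start that lies inside the span given above, and not the outermost start of that span.
Cldn5: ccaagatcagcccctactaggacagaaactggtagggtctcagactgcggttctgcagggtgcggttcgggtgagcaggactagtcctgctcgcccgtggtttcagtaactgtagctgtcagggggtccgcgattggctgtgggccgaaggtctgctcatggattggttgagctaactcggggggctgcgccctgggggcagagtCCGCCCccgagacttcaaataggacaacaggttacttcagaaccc
Tjp1: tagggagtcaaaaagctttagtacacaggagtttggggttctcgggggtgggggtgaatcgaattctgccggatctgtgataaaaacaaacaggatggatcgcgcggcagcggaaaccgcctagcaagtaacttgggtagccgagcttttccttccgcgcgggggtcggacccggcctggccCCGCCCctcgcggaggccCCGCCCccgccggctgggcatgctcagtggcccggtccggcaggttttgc
A GC box was found in 10756 of 32851 RefSeq promoters of this length (32.7%), so its presence sets neither gene apart. The ETS word CCGGAAGT, searched on both strands, was in neither sequence and in 945 promoters (2.88%).

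Of 47466 barcodes, 46283 passed the filter of 500 to 6000 genes and under 25% mitochondrial UMIs, with 10653583 to 28419323 UMIs per library and medians of 3075 to 5149 UMIs per cell. Reclustering of all libraries, with the junction genes held out of the features, gave 20 clusters, and clusters were named from markers only. Sinusoidal cells (bmEC) numbered 16175 in 5 clusters, metaphyseal cells (mpEC) 11954 in 2 clusters, arterial cells (aEC) 6966 in 1 cluster and type R cells (rEC) 3495 in 1 cluster. Of the defining markers, Stab2 had a median of 1649 CPM (the usual count unit scaled by library size, here with the UMIs of a class in a library summed) in bmECs against at most 293 in the other classes, and Gja4 had 1354 in aECs against at most 127. Ramp3 had 401 in mpECs against at most 132, and Timp4 had 823 in rECs against at most 15.7. Aplnr was less exclusive, with 1053 CPM in mpECs and 623 in rECs. Adamts5, which the study shows as a bmEC marker, was placed on the metaphyseal list here when clusters were named. It had 1251 to 1918 CPM in bmECs and 66.8 to 415 in mpECs. Sums of metaphyseal markers below leave it out, a choice made after its values were seen. The rEC cluster was mixed: Ccl21a, a lymphatic marker, was the second of its leading genes after Timp4, and the 6 lymphatic markers summed to 257 to 3962 CPM in rECs of the 10 libraries against 122 to 362 in bmECs and at most 19.0 in aECs. In 1 juvenile library they exceeded the sum of the 5 type R markers, which was 2450 to 2851 CPM in juvenile rECs. At the cluster resolutions 0.3 and 0.8, in place of 0.5, a cluster led by Ccl21a and Vwf split off, and rECs numbered 2875 and 2873. Other settings named beside the results are these resolutions, classes taken by marker UMIs (cells with a UMI of their own class's markers and none of the markers of the other 3 classes) and cells thinned to 1000 UMIs. The rEC class was small in juvenile replicate 2 (50 cells), juvenile replicate 1 (66) and PTH replicate 1 (68). PTH replicate 1 also had the fewest barcodes (2193 against 2546 to 7805). The aged libraries shared at most 4 barcodes with any other library, where the other libraries shared up to 29 to 88, and only they list 276 gene names that were left out here. The series names 2 versions of the kit without assigning them to samples, so that age and kit cannot be told apart in the aged group.

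The question first asked was how the junction genes differ between the 4 endothelial classes. Jam2 and Jam3 differed most and in every pair, Cldn5 was lowest in rECs, and Cdh5, Esam, F11r and Tjp1 differed between any pair by a log2 fold change of at most 0.51 in size at the resolution used. Of the 7 members tested, 5 were higher and 0 lower in mpECs than in bmECs, a pair in which 57.1% of all genes tested were called (26.2% higher and 30.9% lower). In aECs 4 were higher and 1 lower than in bmECs (67.4% of all genes called, 30.6% higher and 36.7% lower), and in rECs 5 were higher and 1 lower than in bmECs (61.5%, 27.8% and 33.8%). Against mpECs, 2 were higher and 3 lower in aECs (50.5%, 24% and 26.6%), and 4 were higher and 1 lower in rECs (47.1%, 21.3% and 25.8%). Between rECs and aECs 5 were higher and 1 lower in rECs (33%, 14.7% and 18.4%). A log2 fold change over 1 in size was called for Jam2 and Jam3 in mpECs, aECs and rECs against bmECs (10.9%, 19.4% and 20.8% of all genes), for Jam3 in aECs against mpECs (11.9%), for Jam2 in rECs against mpECs (13.8%), and for Jam3 and Cldn5 in rECs against aECs (9.66%). With most genes called in most pairs, the number of members called says little of them, and their sizes and directions are given instead.

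**Figure D1:**
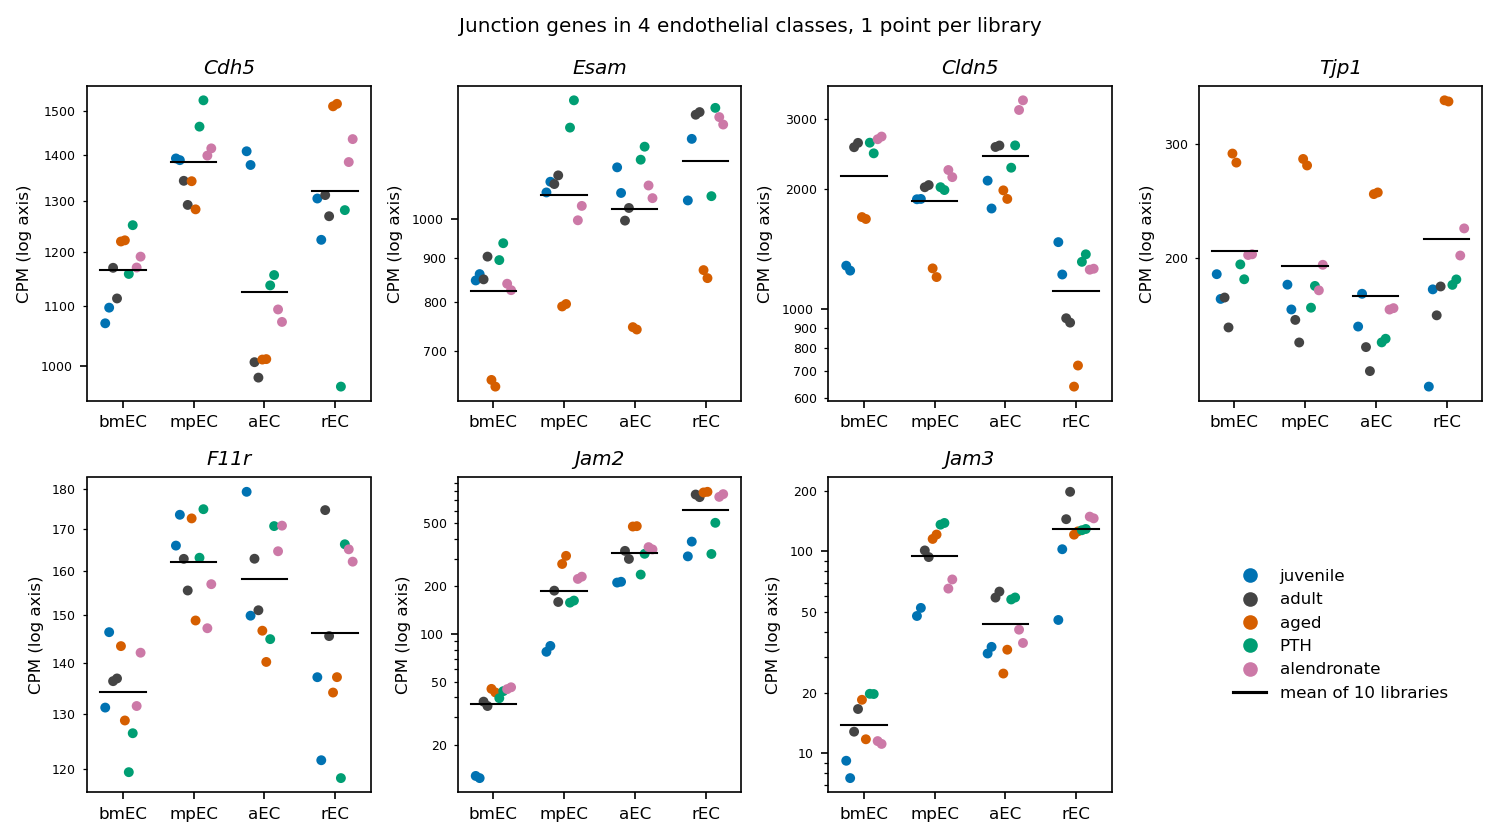
Level of each junction gene in CPM (log axis) in the 4 classes, 1 point per library coloured by group and a line at the mean of 10 libraries. Jam2 climbs from a mean of 36.0 CPM in bmECs to 609 in rECs, while Cldn5 is lowest in rECs at 1115.

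Cdh5, which encodes VE-cadherin, ranged from 1071 to 1251 CPM with a median of 1169.7 over the 10 libraries in bmECs, and from 1283 to 1526 with a median of 1389 in mpECs. In aECs it ranged from 982 to 1407 (median 1084) and in rECs from 968 to 1517 (median 1309). The order by mean was mpEC (1384 ± 74.2, SD, n = 10), rEC (1321 ± 160), bmEC (1166 ± 58.1) and aEC (1126 ± 152). Of the neighbours in this order, mpECs and rECs (-0.06 for rECs against mpECs, adjusted p = 0.485, edgeR quasi-likelihood test with the library as a block, here and below for class pairs) and bmECs and aECs (adjusted p = 0.451) were not called. The place of rECs rests on the clusters. At the resolutions 0.3 and 0.8 rECs were above mpECs by 0.19 (adjusted p = 0.0105 and 0.00918), above bmECs by 0.45 at both in place of 0.19 (0.32 with classes by marker UMIs), and above aECs by 0.49 in place of 0.24. The log2 fold change was 0.25 for mpECs over bmECs (SE 0.065, adjusted p = 0.00153, higher in 10 of 10 libraries) and -0.30 for aECs against mpECs (adjusted p = 0.000178, lower in 9 of 10 libraries), the latter not called in the 6 libraries of the age groups alone (-0.24, adjusted p = 0.0523).

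Esam ranged from 636 to 937 CPM in bmECs (median 848), from 790 to 1378 in mpECs (median 1087), from 742 to 1216 in aECs (median 1066) and from 852 to 1350.3 in rECs (median 1266). BmECs were below each of the other classes in all 10 libraries, with log2 fold changes of 0.37 for mpECs, 0.31 for aECs and 0.51 for rECs. MpECs and aECs were not called (adjusted p = 0.386). RECs were above aECs by 0.19 (adjusted p = 0.00285, higher in 8 of 10 libraries), by 0.32 at both other resolutions and, with no call, by 0.16 without a filter on low counts (adjusted p = 0.0614). The excess of rECs over mpECs was 0.14 (adjusted p = 0.0239) and lost its call without adult replicate 1 (0.12, adjusted p = 0.072), without adult replicate 2 (0.13, adjusted p = 0.0668) or without alendronate replicate 1 (0.13, adjusted p = 0.0516), and without a filter on low counts (0.09, adjusted p = 0.316). At the resolutions 0.3 and 0.8 it was 0.27 and 0.26.

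Cldn5 had the highest mean UMI level of the members in bmECs, mpECs and aECs, but not in rECs. It ranged from 1250.3 to 2706 CPM in bmECs (median 2501), 1205 to 2232 in mpECs (median 2005) and 1788 to 3334 in aECs (median 2405). RECs had 641 to 1473 CPM, with a median of 1239.8. The range of rECs overlapped those of bmECs and mpECs but not that of aECs, and within a library rECs were below mpECs and below aECs in all 10 libraries and below bmECs in 9. The mean was 2420.0 ± 520 in aECs, 2152 ± 598 in bmECs, 1869.7 ± 350.1 in mpECs and 1115 ± 285 in rECs (SD, n = 10 each). The log2 fold change of rECs was -0.96 against bmECs (SE 0.11, adjusted p = 8.64e-10), -0.77 against mpECs (SE 0.11, adjusted p = 1.78e-07) and -1.14 against aECs (SE 0.11, adjusted p = 4.32e-11). AECs were higher than mpECs (0.37, adjusted p = 0.00294, but 0.35 with adjusted p = 0.0881 in the age groups alone), and bmECs were called against neither aECs (0.18, adjusted p = 0.121) nor mpECs (-0.19, adjusted p = 0.117). These missed calls depend on the setting. The excess of aECs over bmECs was called in 7 of 21 other settings, with 0.29 and 0.31 at the resolutions 0.3 and 0.8 (adjusted p = 0.0198 and 0.0123), 0.30 with classes by marker UMIs (adjusted p = 0.0229) and 0.29 after thinning (adjusted p = 0.00622). The deficit of mpECs was called without juvenile replicate 1 (-0.26, adjusted p = 0.017) and without juvenile replicate 2 (-0.25, adjusted p = 0.0297).

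The low value of rECs also showed in single cells, whereas the order of bmECs and aECs was exchanged. After each cell was thinned to 1000 UMIs, which left out 283 to 583 cells of a class, a Cldn5 UMI was found in a mean of 75.3% of bmECs, 70.3% of mpECs, 72.9% of aECs and 49.5% of rECs over the 10 libraries. Before thinning the shares were 93.1%, 88.8%, 88.9% and 68.2%. Erythroid cells, which should lack the gene, gave 12.1% at the same depth (median 6051 UMIs before thinning, against 2222 in rECs), and the endothelial shares lie well above that level.

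Tjp1 ranged from 157 to 290 CPM in bmECs (median 192), 148 to 284 in mpECs (median 180.0), 134 to 253 in aECs (median 162) and 127 to 350.2 in rECs (median 184). AECs were lowest and differed from bmECs (-0.24, adjusted p = 4.45e-05), from mpECs (-0.16, adjusted p = 0.0069) and from rECs, which were higher by 0.32 on the log2 scale (adjusted p = 1.11e-05, and by 0.48 at both other resolutions). In the age groups alone aECs were not called against bmECs (-0.15, adjusted p = 0.126) or mpECs (-0.12, adjusted p = 0.292). The difference from mpECs was also lost with classes by marker UMIs (-0.10, adjusted p = 0.147) and after thinning (-0.12, adjusted p = 0.2). RECs were above mpECs by 0.16 (adjusted p = 0.0129, higher in 9 of 10 libraries), by 0.34 at both other resolutions, 0.32 with classes by marker UMIs and 0.30 after thinning. That call was lost without a filter on low counts (0.11, adjusted p = 0.256), with the stricter cell filter (0.13, adjusted p = 0.0696) and in the age groups alone (0.21, adjusted p = 0.0788). RECs were not called against bmECs (0.08, adjusted p = 0.21), but were at the resolutions 0.3 and 0.8 (0.25 at both, adjusted p = 0.000277 and 0.000133). F11r spanned 120 to 146 CPM in bmECs (median 134), 147 to 175 in mpECs (median 163), 140.2 to 179 in aECs (median 157) and 119 to 175 in rECs (median 141). It was higher in mpECs than in bmECs (0.27, adjusted p = 9.55e-06) and higher in aECs than in bmECs (0.23, adjusted p = 0.000102), in 10 of 10 libraries each. Its excess in rECs over bmECs was 0.16 (adjusted p = 0.0137) and was not called without adult replicate 1 (0.14, adjusted p = 0.055), without a filter on low counts (0.15, adjusted p = 0.0944), with classes by marker UMIs (0.11, adjusted p = 0.262) or in the age groups alone (0.14, adjusted p = 0.17), while it was 0.26 at both other resolutions.

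Jam2 showed a graded pattern, with no overlap between bmECs and any other class. It ranged from 12.3 to 46.2 CPM in bmECs (median 41.1), from 77.4 to 312 in mpECs (median 176), from 212 to 481 in aECs (median 329) and from 309.9 to 792 in rECs (median 735). The means were 36.0 ± 12.9, 187 ± 75.9, 328 ± 95.7 and 609 ± 205 CPM (SD, n = 10). The log2 fold change over bmECs was 2.38 in mpECs (SE 0.11, adjusted p = 2.76e-20), 3.23 in aECs (SE 0.11, adjusted p = 1.01e-24) and 4.10 in rECs (SE 0.12, adjusted p = 7.89e-27). Each step of the order was also called: aECs were above mpECs by 0.85 (adjusted p = 3.11e-09) and rECs above aECs by 0.87 (adjusted p = 1.13e-08), in all 10 libraries.

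Jam3, which encodes the binding partner of JAM-B, followed another order, in which mpECs stood above aECs. It ranged from 7.54 to 19.7 CPM in bmECs (median 12.3), 47.9 to 138 in mpECs (median 97.3), 24.8 to 63.2 in aECs (median 38.1) and 45.7 to 197 in rECs (median 128). The log2 fold change over bmECs was 2.77 in mpECs, 1.64 in aECs and 3.27 in rECs (adjusted p = 4.22e-20, 1.49e-12 and 6.16e-21). AECs were lower than mpECs by a log2 fold change of -1.13 in all 10 libraries (adjusted p = 7.02e-10), and rECs were above mpECs by 0.51 (adjusted p = 0.00117, higher in 7 of 10 libraries), but not with classes by marker UMIs (0.30, adjusted p = 0.205).

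**Figure D2:**
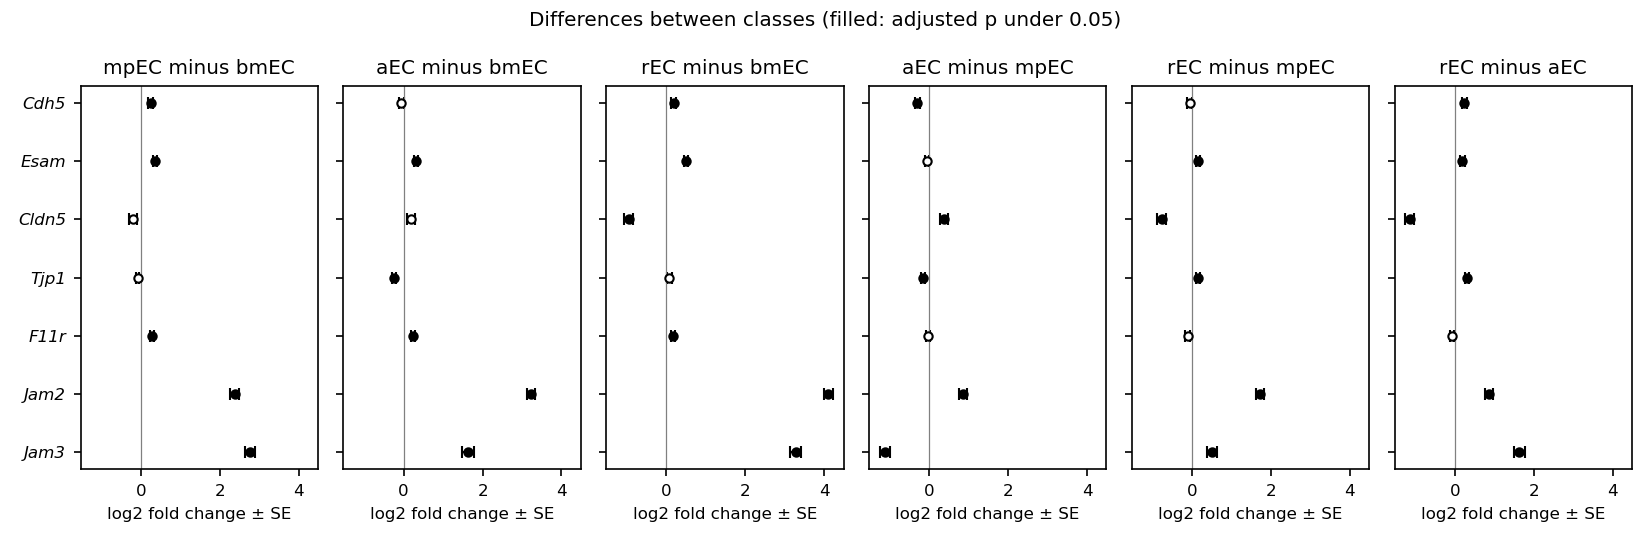
Log2 fold change (x axis) of each junction gene between each pair of classes, with bars for the standard error over 10 libraries and filled points for an adjusted p under 0.05. Jam2 and Jam3 are filled in all 6 pairs, and Cldn5 lies left of 0 in each pair that sets rECs against another class.

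The low levels in bmECs need the background beside them. After thinning to 1000 UMIs a Jam3 UMI was found in a mean of 1.20% of bmECs, 9.92% of mpECs, 4.14% of aECs and 11.6% of rECs, against 1.18% of erythroid cells. Jam2 UMIs were found in 3.13% of bmECs, 16.3% of mpECs, 26.6% of aECs and 45.2% of rECs, against 2.23% of erythroid cells and 2.28% of cells of a cluster led by the granulocyte gene Elane. Before thinning, the Jam2 shares were 11.5% of bmECs and 11.9% of erythroid cells, and the Jam3 shares 5.37% and 5.10%, at unlike depths (medians of 3767 and 6051 UMIs). Erythroid cells are an imperfect background, as a Cdh5 UMI was found in a mean of 13.2% of them after thinning. At 1000 UMIs Jam3 in bmECs therefore cannot be told from background and Jam2 in bmECs lies close to it. The fold changes over bmECs are taken against such levels.

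Ocln, the gene of occludin, was barely detected in the 4 endothelial classes. It had 9 UMIs in all bmECs, 2 in mpECs, 36 in aECs and 5 in rECs, too few for a test between classes. After thinning, 0 of 11378 mpECs had an Ocln UMI, which allows a share of cells with a UMI at this depth of up to 0.0264% (3 cells of that total, for counting error only) and sets no limit on cells that express the gene. Of its 194 UMIs in all cells, 123 fell into 203 cells of a mesenchymal cluster led by Bglap, which encodes osteocalcin, where the level was 116 CPM and 38.9% of cells had a UMI. In the same cluster Tjp1 reached 585 CPM (445 to 871 over 4 libraries with enough cells, those of the aged and PTH groups). In the aEC cluster it had 182 with all groups pooled, and Tjp1 was higher in aged cells of all 4 classes, as given below. Cldn5 had 123 CPM and Cdh5 304 in the Bglap-led cluster.

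**Figure D3:**
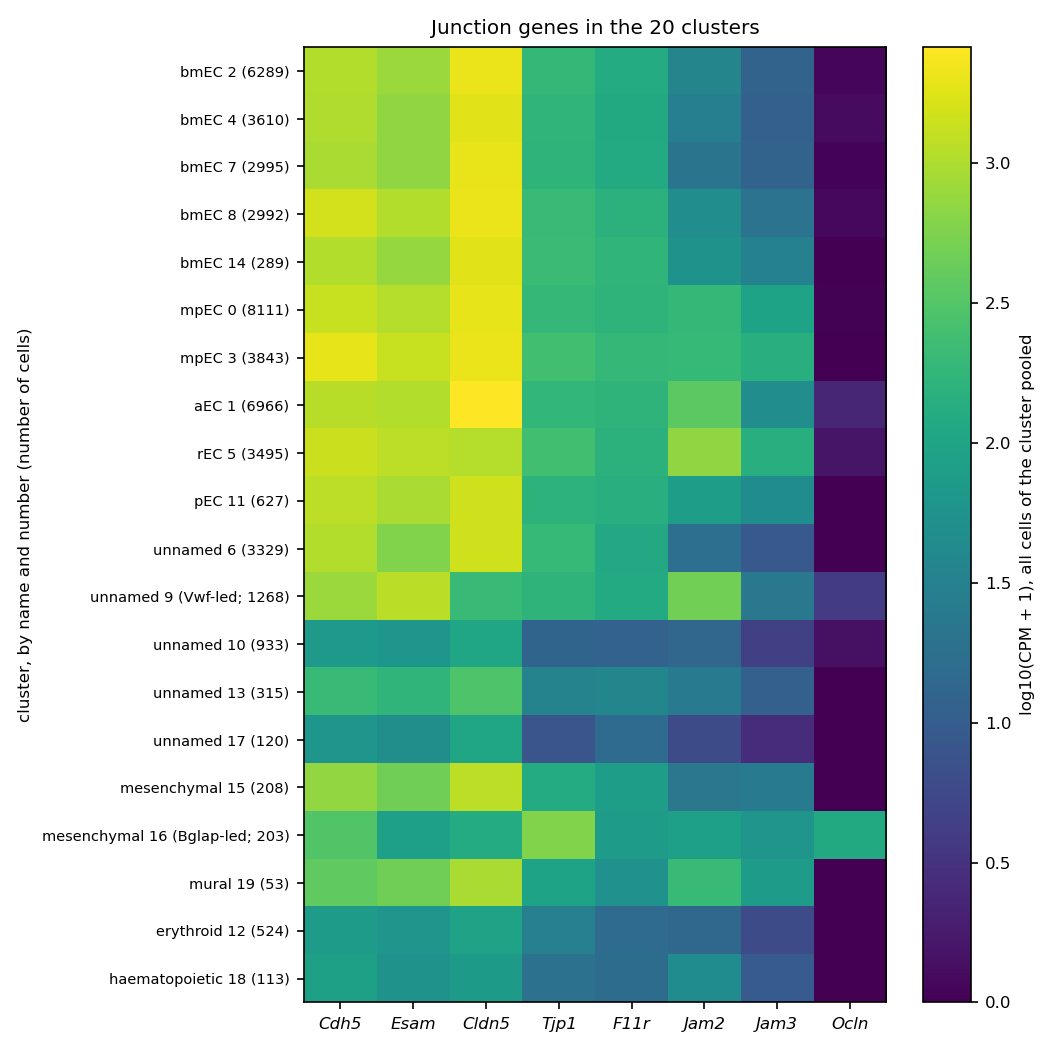
Heat map of the 8 junction genes in the 20 clusters, as log10(CPM + 1) of pooled cells, with each cluster's name and number of cells, and the leading gene of the Bglap-led and Vwf-led clusters. Ocln is visible in the Bglap-led mesenchymal cluster at 116 CPM, and Cldn5 is darker in the Vwf-led unnamed cluster (205 CPM) than in any named endothelial cluster.

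Levels of clusters are plain CPM of the cluster's own total, a scale that differs from that of the class tests. An unnamed cluster of 1268 cells, led by Vwf, which encodes von Willebrand factor, combined high Jam2 with low Cldn5. It had 485 CPM of Jam2 (442 to 589.6 over 9 libraries) and 1162 of Esam, close to the rEC cluster for Esam (1186), but 205 of Cldn5 (84.0 to 288) against 1091 in the rEC cluster and 2598 in the aEC cluster. Its Cdh5 level was 807 CPM and its Jam3 level 22.5. Of the marker lists it scored highest for type R, with Fmo2 and C1qtnf9 among its leading genes. It had 2 of 5 type R markers up, where 3 were needed for a name. Whether its cells belong with the rECs was not tested. A further unnamed cluster of 3329 cells that carried sinusoidal markers had 16.8 CPM of Jam2, 8.05 of Jam3, 585 of Esam and 1482 of Cldn5. It had 5 of 6 sinusoidal markers up and was left unnamed because its leading genes included Adamts5, on the metaphyseal list here, and no listed sinusoidal marker. The study shows Adamts5 as a bmEC marker and describes high Cxadr, another leading gene of this cluster, in bmECs. The cluster held 8 and 14 aged cells against 511 and 478 adult cells. At resolution 0.8 a cluster of 3600 cells with the same first 5 leading genes was named bmEC. Leaving the 3329 cells out of the bmEC class therefore bears on all bmEC values and on the comparison of aged and adult bmECs. At that resolution, of the 7 members in aged bmECs, Jam2 gained a call and the calls of the other 6 stayed as they were. Proliferating cells (627 cells) had 79.2 CPM of Jam2 and 1470.2 of Cldn5. In erythroid cells the level was 76.5 CPM for Cdh5, 91.8 for Cldn5 and 13.4 for Jam2. These clusters were formed without the junction genes, but from the same cells, and their differences were not tested.

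The study next asked how endothelium changes with age and with treatment. Each group was compared with adult within a class, by the edgeR test on 2 libraries a group, and all 4 comparisons share the adult libraries. CPM values below were scaled within 1 class and are not on the scale used between classes. Of 28 tests of members in 4 classes, 14 were called for juvenile, 20 for aged, 9 for PTH and 8 for alendronate. Of all genes tested in a class, 3.31% to 34.1% were called for juvenile and 46.7% to 67% for aged. For PTH the shares were 3.46% to 17.3% and for alendronate 2.22% to 16.3%.

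**Figure D4:**
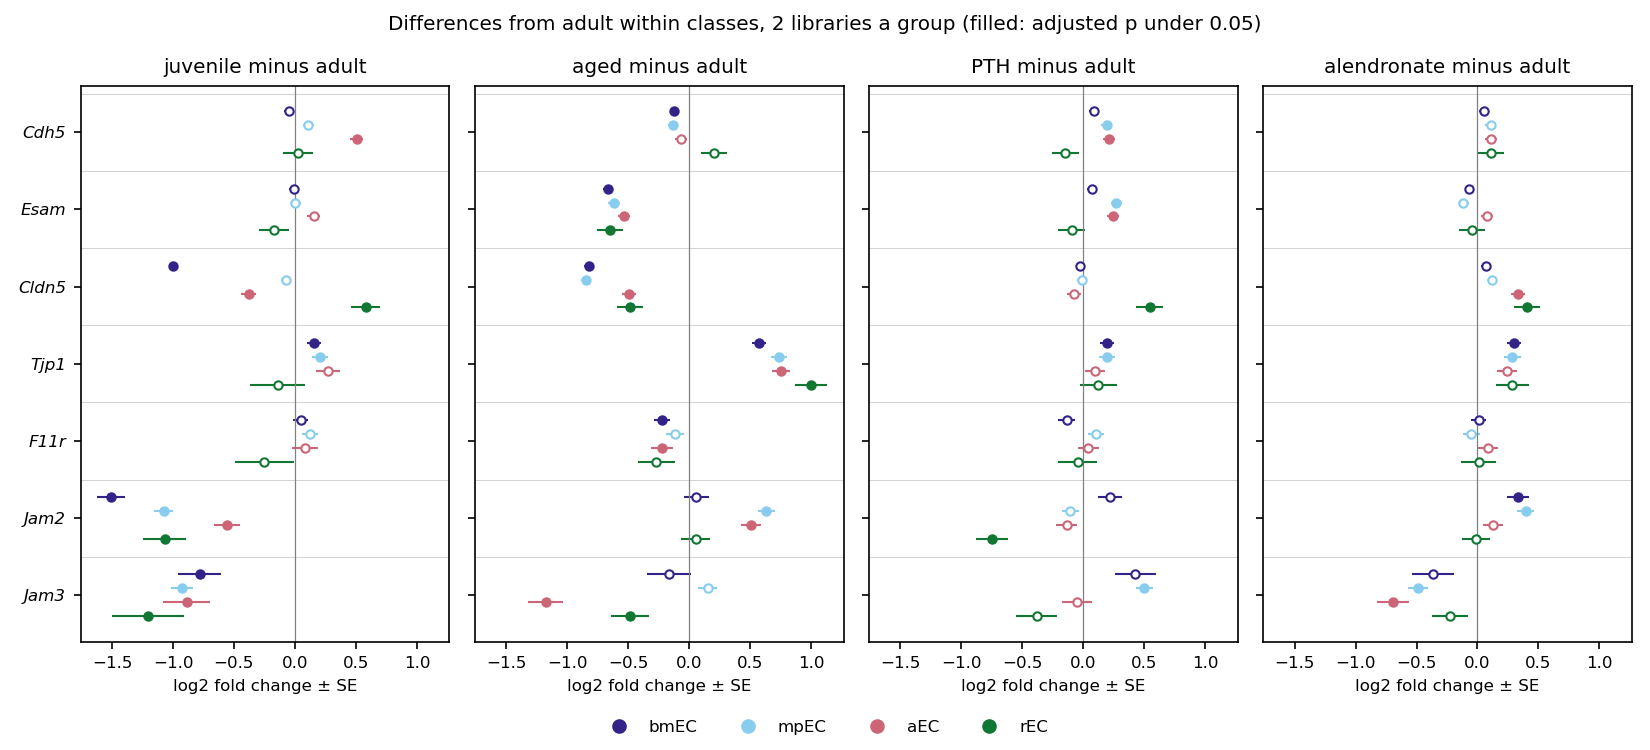
Log2 fold change from adult (x axis) of each junction gene in each class and group, with bars for the standard error, 2 libraries a group, and filled points for an adjusted p under 0.05. In aged cells Esam and Cldn5 lie left of 0 and Tjp1 right of 0 in all 4 classes, and in juvenile cells Jam2 and Jam3 lie left of 0 in all 4.

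In juvenile endothelium Jam2 and Jam3 were lower in all 4 classes, and Cldn5 was lower in bmECs and aECs but higher in rECs. The juvenile mice were male and female and the adult ones female, so that age and sex cannot be told apart in these comparisons. In bmECs 1 member was called higher and 3 lower, where 34.1% of all genes were called (17% higher and 17.2% lower). In mpECs 1 was higher and 2 lower (29% of all genes, 14.9% and 14.1%), in aECs 1 higher and 3 lower (14.6%, 7.21% and 7.38%), and in rECs 1 higher and 2 lower (3.31%, 1.5% and 1.81%). Jam2 in mpECs measured 81.6 and 89.1 CPM in the juvenile libraries and 195 and 165 in the adult libraries. In aECs it measured 222 and 226 against 349 and 309, and in rECs 326 and 405 against 768 and 751. Both juvenile libraries were below both adult libraries in each class. The log2 fold change was -1.08 in mpECs (SE 0.079, adjusted p = 5.91e-15), -0.56 in aECs (SE 0.11, adjusted p = 0.000328) and -1.07 in rECs (SE 0.17, adjusted p = 4.93e-05). In bmECs the levels were 12.4 and 12.0 CPM against 35.9 and 33.6 (-1.51, adjusted p = 9.69e-13). After thinning, a Jam2 UMI was found in 1.27% and 0.95% of juvenile bmECs and in 0% and 1.96% of erythroid cells of the same libraries. These libraries held 63 and 51 erythroid cells before thinning, too few to set the juvenile level equal to background or apart from it. Jam2 was lower in both libraries in 4 of 5 bmEC clusters and in both mpEC clusters taken one by one. In juvenile mpECs the 8 arterial markers summed to 275 to 285 CPM against 458 to 477 in adult ones. The 5 type R markers summed to 9.64 to 9.98 against 20.8 to 22.3 and the 6 sinusoidal markers to 1234 to 1243 against 1042 to 1067. The part of these in the Jam2 change was not tested.

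Jam3 in juvenile mpECs measured 50.5 and 55.5 CPM against 104 and 96.5 in adult mpECs (-0.93, adjusted p = 7.7e-12), and in aECs 32.8 and 35.5 against 61.3 and 65.5 (-0.89, adjusted p = 0.00108), a call that was lost after thinning (-0.54, adjusted p = 0.454). In juvenile aECs the 6 mural markers summed to 44.4 to 73.8 CPM against 102 to 139 in adult ones. The metaphyseal markers other than Adamts5 summed to 417 to 513 against 233 to 259, and the part of these in the aEC change was not tested. In rECs the juvenile libraries, with 48.1 and 108 CPM, lay further apart in ratio than the 2 adult libraries (146 and 202). The log2 fold change in rECs was -1.21 (adjusted p = 0.011) and was not called without juvenile replicate 1 (-0.71, adjusted p = 0.486) or without adult replicate 2 (-0.998, adjusted p = 0.121), nor with classes by marker UMIs (-1.33, adjusted p = 0.237), the stricter cell filter (-0.92, adjusted p = 0.189) or a fit over these 2 groups alone (-1.18, adjusted p = 0.0605), and it was -1.87 without juvenile replicate 2. In bmECs Jam3 had a log2 fold change of -0.78, at a level that could not be told from background, as described above.

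Cldn5 in juvenile bmECs measured 1254 and 1216 CPM against 2437 and 2496 in adult bmECs, a log2 fold change of -0.998 (SE 0.038, adjusted p = 2.3e-20), and it was lower in each of the 5 bmEC clusters, by -1.04 to -0.86. The 6 megakaryocyte markers summed to 210 to 223 CPM in juvenile bmECs against 81.5 to 98.4 in adult ones and the 7 erythroid markers to 524 to 590 against 256 to 359. Their part in the bmEC values was not tested. In aECs it measured 2204 and 1885 against 2646 and 2663 (-0.38, adjusted p = 2.53e-05, but -0.21 with adjusted p = 0.113 with classes by marker UMIs), and in mpECs, with 1989 and 1998 against 2090.4 and 2109, the change of -0.08 was not called (adjusted p = 0.193). In rECs the direction was the opposite, with 1549 and 1289.8 CPM against 959 and 949 (0.58, adjusted p = 0.00185). The call in rECs was lost without juvenile replicate 1 (0.40, adjusted p = 0.24), without adult replicate 2 (0.54, adjusted p = 0.0534), after thinning (0.47, adjusted p = 0.138) and with classes by marker UMIs (0.12, adjusted p = 0.917). The juvenile rEC libraries also carried a summed level of 881 to 3962 CPM of the 6 lymphatic markers, against 394 to 678 in the adult ones, and the part of this in the rEC values was not tested. The change of Cldn5 from adult differed between the 4 classes (test of the interaction of class and group, edgeR, adjusted p = 1.8e-25), as 9.67% of all genes did.

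Cdh5 in juvenile aECs was higher, at 1478 and 1452 CPM against 1045 and 1018 (0.51, SE 0.053, adjusted p = 7.17e-09). The 5 metaphyseal markers other than Adamts5 summed to 417 to 513 CPM in juvenile aECs against 233 to 259 in adult ones, and Cdh5 was higher in mpECs than in aECs. The part of this in the aEC change was not tested. The juvenile change of Cdh5 was -0.05 in bmECs, 0.11 in mpECs and 0.02 in rECs, none of them called in the setting used (in mpECs it was under 7 others, at 0.10 to 0.12), and it differed between classes (adjusted p = 1.35e-08). Tjp1 was higher in juvenile bmECs (184 and 169 CPM against 167 and 149.8; 0.16, adjusted p = 0.025) and mpECs (192 and 177 against 166 and 153; 0.21, adjusted p = 0.0175). Neither call held without juvenile replicate 1 (0.09, adjusted p = 0.373, in bmECs and 0.14, adjusted p = 0.259, in mpECs) or without adult replicate 2 (0.08, adjusted p = 0.401, and 0.15, adjusted p = 0.219). Nor did they hold with DESeq2 (adjusted p = 0.139 and 0.0845), classes by marker UMIs (0.0509 and 0.141) or thinning (0.0694 and 0.177). The call in bmECs was also lost without a filter on low counts (adjusted p = 0.0561). Esam and F11r were not called in juvenile cells of any class in the setting used, but Esam in aECs (0.15) was under 5 others, at 0.15 to 0.23. The 7 erythroid markers summed to 283 to 1731 CPM in juvenile mpECs against 245 to 263 in adult ones, and their part in the mpEC values was not tested.

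In aged endothelium Esam and Cldn5 were lower and Tjp1 was higher in all 4 classes. In bmECs 1 member was called higher and 4 lower, where 67% of all genes were called (33.7% higher and 33.3% lower), and in mpECs 2 were higher and 3 lower (66%, 33.4% and 32.6%). In aECs 2 were higher and 4 lower (58.9%, 29% and 29.9%), and in rECs 1 was higher and 3 lower (46.7%, 24% and 22.7%), so that the number called sets the members little apart. The age difference is read within this background and beside the kit, which cannot be told apart from it. The aged libraries also had medians of 2.31% and 2.42% mitochondrial UMIs, against 1.15% to 1.43% in the other libraries. Their medians of 5149 and 5056 UMIs per cell stood against 3075 to 4195.

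Esam measured 533 and 525 CPM in aged bmECs against 814 and 864 in adult ones (-0.67, SE 0.041, adjusted p = 9.18e-16), and 745 and 753 in aged mpECs against 1137 and 1159.9 (-0.62, SE 0.046, adjusted p = 2.15e-15). In aECs it measured 727 and 724 against 1034 and 1068 (-0.53, adjusted p = 1.87e-10), and in rECs 868 and 855 against 1337 and 1367 (-0.65, adjusted p = 3.27e-06). The aged libraries lay below all the other 8 libraries in each class, and the change did not differ between classes by the interaction test (adjusted p = 0.444). Esam was lower in each of the 3 bmEC clusters with enough aged cells and in both mpEC clusters.

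Cldn5 measured 1400.0 and 1388 CPM in aged bmECs (-0.82, SE 0.038, adjusted p = 6.04e-19) and 1196 and 1142 in aged mpECs against 2090.4 and 2109 (-0.85, SE 0.043, adjusted p = 5.64e-21). In aECs it measured 1932 and 1844 against 2646 and 2663 (-0.49, adjusted p = 9.58e-09), and in rECs 639 and 726 against 959 and 949 (-0.48, adjusted p = 0.000274, and -0.99 with classes by marker UMIs). It was lower in 3 of 3 bmEC clusters with enough aged cells, by -1.55 to -0.12 on the log2 scale, and in 2 of 2 mpEC clusters, by -1.39 to -0.51. Its change differed between classes (adjusted p = 0.000123, beside 19.9% of all genes).

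Tjp1 measured 239 and 232 CPM in aged bmECs against 167 and 149.8 (0.57, SE 0.056, adjusted p = 1.21e-10) and 269 and 263 in aged mpECs against 166 and 153 (0.73, SE 0.066, adjusted p = 3.56e-13). In aECs it measured 244 and 247 against 152 and 139 (0.75, adjusted p = 3.96e-10, and 1.17 after thinning). In rECs it measured 348.9 and 349.6 against 165 and 185 (0.998, SE 0.13, adjusted p = 3.9e-08). The 2 aged libraries exceeded all 8 other libraries in each class, and the change did not differ between classes by the interaction test (adjusted p = 0.29).

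**Figure D5:**
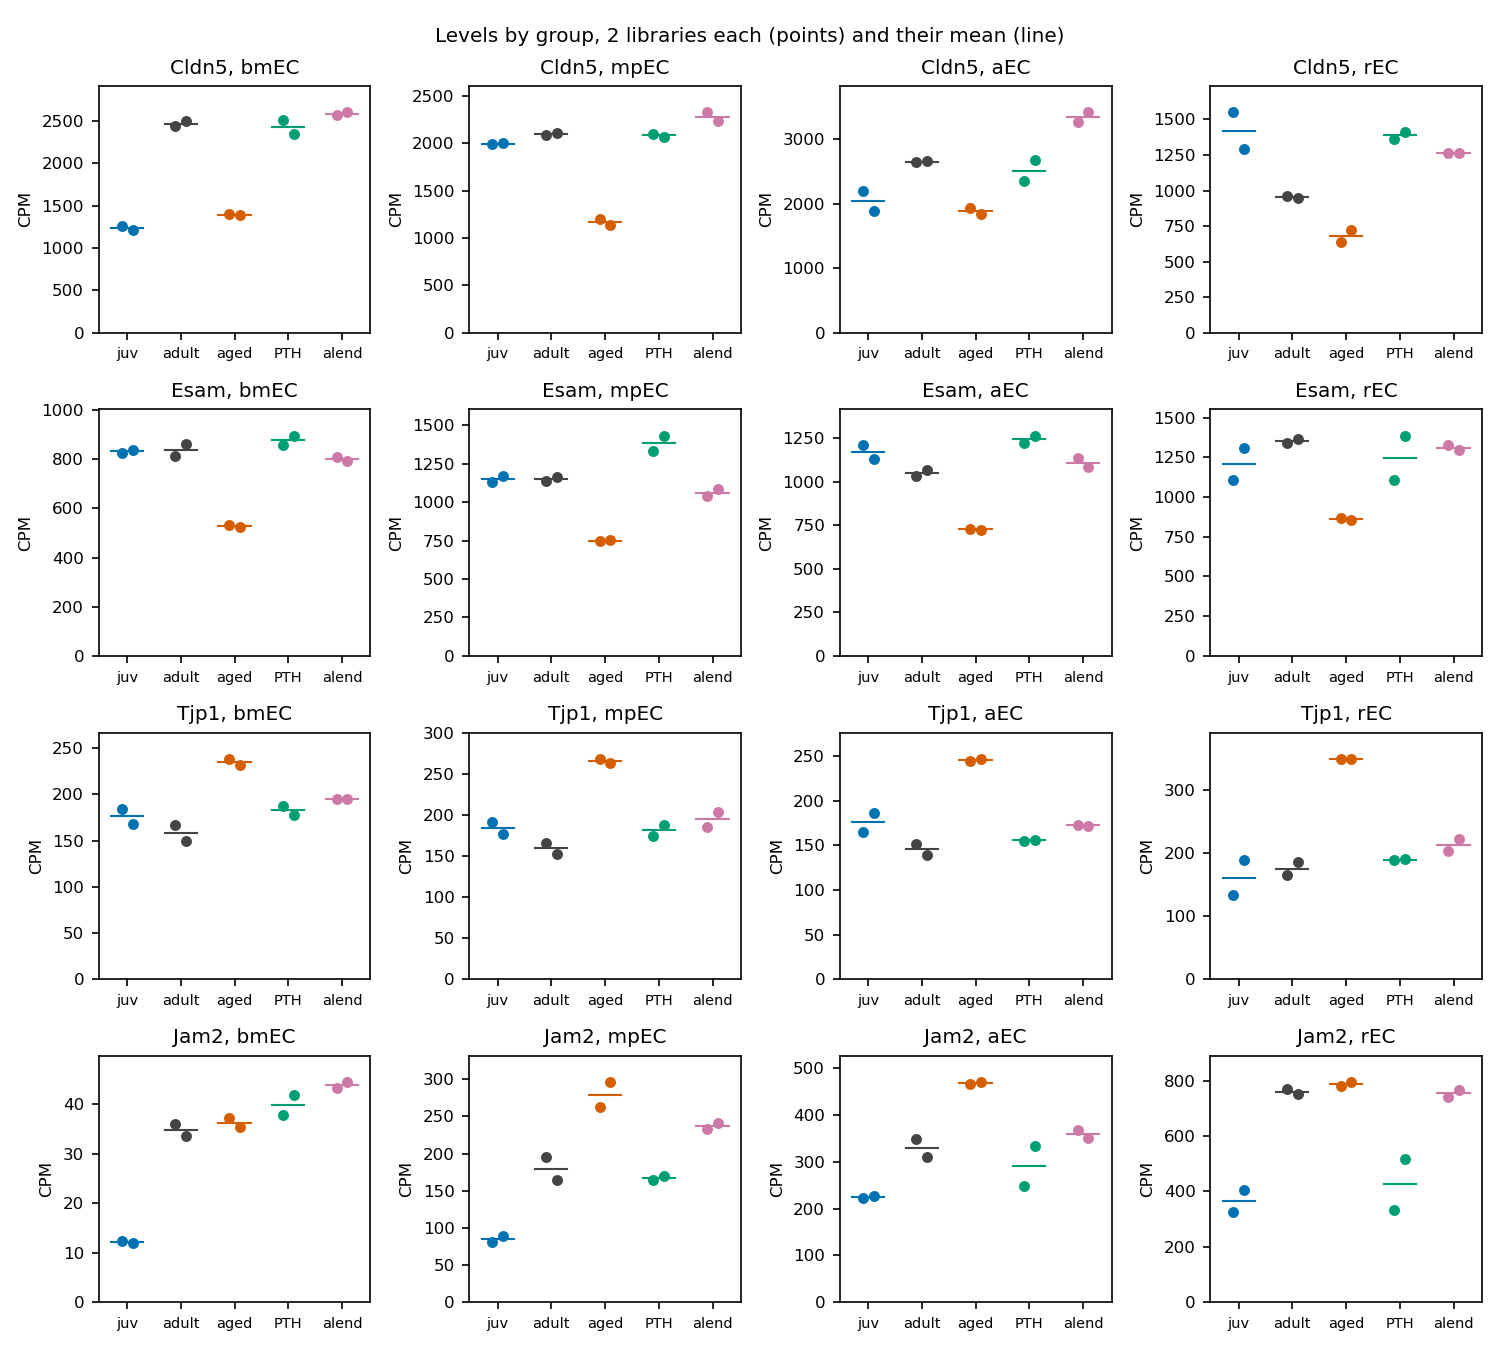
Level of Cldn5, Esam, Tjp1 and Jam2 (rows, CPM from 0) in the 4 classes (columns) by group, with points for the 2 libraries and a line at their mean. The aged libraries are lowest for Esam and highest for Tjp1 in every class, and juvenile bmECs have Cldn5 levels of 1254 and 1216 CPM against 2437 and 2496 in adult ones.

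Jam2 was higher in aged mpECs, with 262 and 296 CPM against 195 and 165 (0.63, SE 0.069, adjusted p = 8.49e-11), and in aged aECs, with 465 and 469 against 349 and 309 (0.50, SE 0.081, adjusted p = 2.96e-06). In rECs, with 782 and 794 CPM against 768 and 751, and in bmECs, with 37.1 and 35.3 against 35.9 and 33.6, it was not called (adjusted p = 0.738 and 0.61), although in bmECs it was at the resolutions 0.3 and 0.8 (0.56 and 0.60, adjusted p = 8.61e-06 and 2.23e-06). In aged mpECs the 8 arterial markers summed to 767 to 821 CPM against 458 to 477 in adult ones, the 6 sinusoidal markers to 751 to 774 against 1042 to 1067 and the 5 type R markers to 61.7 to 64.3 against 20.8 to 22.3. Jam2 was higher in aECs and rECs and lower in bmECs than in mpECs, and the part of these in its change was not tested. Its partner gene Jam3 was lower in aged aECs, with 24.2 and 31.8 CPM against 61.3 and 65.5 (-1.18, SE 0.14, adjusted p = 1.49e-08). In the same aged aECs the metaphyseal markers other than Adamts5 summed to 83.1 to 86.7 CPM against 233 to 259 in adult ones. The 6 sinusoidal markers summed to 235 to 237 against 460 to 508 and the 6 mural markers to 22.8 to 23.3 against 102 to 139. The mural list reached 563 to 564 CPM in adult bmECs and 408 to 417 in adult mpECs, so it does not mark mural cells alone here. Jam3 was higher in mpECs and lower in bmECs than in aECs, and the part of these was not tested. Jam3 had 109 and 115 against 104 and 96.5 in mpECs (0.15, adjusted p = 0.0829), where it was called with classes by marker UMIs (0.47, adjusted p = 9.6e-05), after thinning (0.37, adjusted p = 0.0255), with the stricter cell filter (0.22, adjusted p = 0.0111) and without the shallow clusters (0.28, adjusted p = 0.00413). In rECs it was lower (120.4 and 126 CPM against 146 and 202; -0.48, adjusted p = 0.0108), but not without adult replicate 2 (-0.24, adjusted p = 0.378) or aged replicate 1 (-0.44, adjusted p = 0.0646), without a filter on low counts (-0.43, adjusted p = 0.0682), with DESeq2 (-0.46, adjusted p = 0.0895), with classes by marker UMIs (-0.54, adjusted p = 0.216) or with the stricter cell filter (-0.23, adjusted p = 0.36). At the resolutions 0.3 and 0.8 it was -0.89 and -0.88. The changes of Jam2 and of Jam3 each differed between classes (adjusted p = 2.79e-07 and 2.33e-09).

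Cdh5 was called lower in aged bmECs (1003 and 1008 CPM against 1119.8 and 1065; -0.12, adjusted p = 0.0086) and mpECs (1267 and 1216 against 1389 and 1332; -0.13, adjusted p = 0.00802), but with plain CPM the direction turned in both (0.28 and 0.08 on the log2 scale). On the scale set over all 4 classes the aged mean was 1221 CPM in bmECs against 1142, and in mpECs 1313 against 1318. Neither call held without adult replicate 1 (-0.10, adjusted p = 0.0603, and -0.12, adjusted p = 0.0689), nor without the shallow clusters of either class (-0.01 in both, adjusted p = 0.875 and 0.784), with classes by marker UMIs (-0.04 and -0.09, adjusted p = 0.349 and 0.225) or with the stricter cell filter (-0.05 and -0.09, adjusted p = 0.24 and 0.0612). Thinning gave -0.23 and -0.26 and no filter on low counts -0.18 and -0.24. In bmECs DESeq2 did not call it (-0.09, adjusted p = 0.109), and among bmEC clusters 2 were higher and 1 lower. In aged rECs Cdh5 had the other sign, at 1506 and 1521 CPM against 1324 and 1299.8 (0.21, adjusted p = 0.108), and was called in 6 of 22 other settings. The change differed between classes (adjusted p = 0.0272). F11r was called lower in aged bmECs (118 and 106 CPM against 130.6 and 130.9; -0.22, adjusted p = 0.00441) and aECs (143 and 137 against 169 and 157; -0.22, adjusted p = 0.0313). The call in bmECs was lost without aged replicate 2 (-0.15, adjusted p = 0.114) with DESeq2 (-0.19, adjusted p = 0.0718), with classes by marker UMIs (-0.14, adjusted p = 0.0717) and after thinning (-0.22, adjusted p = 0.151), and its direction turned with plain CPM (0.18 on the log2 scale). The call in aECs was lost without adult replicate 1 (-0.18, adjusted p = 0.189), aged replicate 1 (-0.23, adjusted p = 0.0832) or aged replicate 2 (-0.19, adjusted p = 0.156), and under 5 other alternatives, among them thinning (-0.06, adjusted p = 0.774).

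With plain CPM, aged differences from adult shift upward by 0.40 on the log2 scale in bmECs, 0.21 in mpECs, 0.10 in aECs and 0.07 in rECs relative to the scaling used, and those of the other groups by at most 0.034 in either direction. Among called differences this shift changed the direction of Cdh5 in bmECs and mpECs and of F11r in bmECs, all in aged cells, and of no other. The make-up of the aged bmEC class also differed: a cluster led by Slc39a1 held 3.59% of aged and 26.4% of adult bmECs. The summed level of 10 haematopoietic markers was 96.0 to 182 CPM in the aged classes, 44.5 to 62.8 in the adult and 6.88 to 26.5 in the juvenile ones, with at most 3 of the 10 at 0 in an aged class. In aged bmECs the 5 type R markers summed to 110 to 123 CPM against 15.7 to 19.6 in adult ones, and the 6 lymphatic markers to 327 to 362 against 150 to 155. The metaphyseal markers other than Adamts5 summed to 1255 to 1295 CPM in aged mpECs against 1690 to 1749 in adult ones. In aged rECs they summed to 401 to 406 CPM against 1033 to 1254 in adult rECs, and the 6 sinusoidal markers to 154 to 213 against 334 to 395. The part of these in the age differences was not tested.

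PTH treatment was compared with untreated adult mice of the same age and sex. In bmECs 1 member was called higher and 0 lower, where 8.77% of all genes were called (5.01% higher and 3.76% lower), and in mpECs 4 were higher and 0 lower (17.3%, 8.58% and 8.76%). In aECs 2 were higher and 0 lower (7.15%, 3.38% and 3.77%), and in rECs 1 was higher and 1 lower (3.46%, 1.59% and 1.87%). In mpECs Jam3 rose to 141 and 143 CPM from 104 and 96.5 (0.50, SE 0.073, adjusted p = 7.43e-07), Esam to 1331 and 1431 from 1137 and 1159.9 (0.27, SE 0.045, adjusted p = 1.21e-05) and Cdh5 to 1521 and 1585 from 1389 and 1332 (0.19, SE 0.044, adjusted p = 0.001). These 3 calls held without PTH replicate 1 and without PTH replicate 2, but not under every alternative. With classes by marker UMIs those of Esam (0.18, adjusted p = 0.0956) and Cdh5 (0.16, adjusted p = 0.114) were lost, and after thinning that of Cdh5 (0.17, adjusted p = 0.147). In the same libraries the 6 sinusoidal markers summed to 544 to 545 CPM in mpECs against 1042 to 1067 in adult mpECs, and the metaphyseal markers other than Adamts5 to 2831 to 2861 against 1690 to 1749. Jam3, Esam and Cdh5 were each higher in mpECs than in bmECs, and the part of this marker shift in their rises was not tested. In aECs Esam measured 1223 and 1263 CPM against 1034 and 1068 (0.24, adjusted p = 0.00146, lost after thinning at 0.22, adjusted p = 0.0942), and Cdh5 1185 and 1201 against 1045 and 1018 (0.21, adjusted p = 0.00499), a call that was lost without adult replicate 2 (0.19, adjusted p = 0.084) and after thinning (0.20, adjusted p = 0.186). The metaphyseal markers other than Adamts5 summed to 372 to 436 CPM in PTH-treated aECs against 233 to 259 in adult ones, and the part of this was not tested.

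In PTH-treated rECs Jam2 was called lower and Cldn5 higher, and the markers of the class moved too. The 5 type R markers summed to 1192 to 1868 CPM in PTH-treated rECs against 2683 to 2886 in adult ones, and the part of this in the rEC values was not tested. Jam2 measured 333 and 518 CPM against 768 and 751 (-0.75, SE 0.13, adjusted p = 0.00015), with a log2 fold change of -0.57 without PTH replicate 1 and -1.19 without PTH replicate 2. Cldn5 measured 1365 and 1410 against 959 and 949 (0.54, SE 0.11, adjusted p = 0.00099), and the call was lost without adult replicate 2 (0.52, adjusted p = 0.0519). PTH replicate 1 had 68 rECs, and 33 at resolution 0.3. At the resolutions 0.3 and 0.8 Cldn5 had a log2 fold change of 0.96 and 0.97. With rECs taken by UMIs of the class markers in place of a cluster, Jam2 in rECs had a log2 fold change of -0.27 (adjusted p = 0.792) and Cldn5 one of 0.23 (adjusted p = 0.93). Changes of Jam2 and Cldn5 under PTH differed between classes (adjusted p = 4.76e-07 and 1.53e-07, beside 6.26% of all genes). Tjp1 was called higher in bmECs (0.20, adjusted p = 0.0323) and mpECs (0.19, adjusted p = 0.0359). The call in bmECs was lost without adult replicate 2 (0.12), PTH replicate 1 (0.17) or PTH replicate 2 (0.24) and under 7 other alternatives, with adjusted p = 0.0594 (doublets removed) to 0.333 (classes by marker UMIs). That in mpECs was lost without adult replicate 2 (0.14) or PTH replicate 2 (0.13) or without the shallow clusters (0.14, adjusted p = 0.169). It was also lost with DESeq2 (adjusted p = 0.206), classes by marker UMIs (adjusted p = 0.124), the stricter cell filter (adjusted p = 0.0553) and thinning (adjusted p = 0.109).

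Alendronate treatment was compared in the same way. In bmECs 2 members were called higher and 0 lower, where 16.3% of all genes were called (9.17% higher and 7.08% lower), and in mpECs 2 were higher and 1 lower (13.1%, 7.82% and 5.25%). In aECs 1 was higher and 1 lower (7.42%, 4.2% and 3.22%), and in rECs 1 was higher and 0 lower (2.22%, 1.11% and 1.1%). Cldn5 rose in aECs to 3263 and 3417 CPM from 2646 and 2663 (0.33, SE 0.057, adjusted p = 0.000149). In rECs it measured 1265 and 1267 against 959 and 949 (0.41, adjusted p = 0.0219), a call that was lost on leaving out any 1 of the 4 libraries, adult replicate 1 or 2 or alendronate replicate 1 or 2 (0.40 to 0.43, adjusted p = 0.215 to 0.251). With classes by marker UMIs it was 0.08 (adjusted p = 0.968). Alendronate and PTH share the adult rEC libraries, in which Cldn5 was lower than in all 4 treated ones, and its alendronate change differed between classes (adjusted p = 0.00016, beside 3.03% of all genes). The 7 erythroid markers summed to 453 to 1966 CPM in alendronate-treated aECs against 174 to 264 in adult ones. In the same aECs the 8 arterial markers summed to 5729 to 6009 against 4464 to 4518 and the 6 sinusoidal markers to 346 to 397 against 460 to 508. The part of these in the aEC values was not tested. The 10 haematopoietic markers summed to 80.4 to 109 CPM in alendronate-treated classes and to 27.3 to 32.5 in PTH-treated ones, on either side of the adult range, and their part was not tested.

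Jam3 fell under alendronate in mpECs, to 68.1 and 75.8 CPM from 104 and 96.5 (-0.49, SE 0.083, adjusted p = 3.58e-05), and in aECs, to 42.4 and 36.1 from 61.3 and 65.5 (-0.69, SE 0.13, adjusted p = 0.000516). Jam2 rose in mpECs, to 233 and 241 from 195 and 165 (0.39, SE 0.07, adjusted p = 5.63e-05). In bmECs its change of 0.33 (adjusted p = 0.00816) lost its call without adult replicate 2 (0.29) or alendronate replicate 2 (0.32). That call was also lost with DESeq2 (0.35, adjusted p = 0.134) and after thinning (0.26, adjusted p = 0.465). After thinning none of the 3 calls in mpECs and aECs held (-0.35 and -0.66 for Jam3 in mpECs and aECs, adjusted p = 0.206 and 0.136, and 0.28 for Jam2 in mpECs, adjusted p = 0.159). Thinning to 1000 UMIs leaves fewer UMIs by construction (medians before it of 3508.5 in mpECs and 3249 in aECs), so that a lost call alone does not show a smaller change. Jam2 in mpECs was 0.64 with classes by marker UMIs. In alendronate-treated mpECs the metaphyseal markers other than Adamts5 summed to 1396 to 1426 CPM against 1690 to 1749 in adult ones. The sinusoidal markers summed to 779 to 857 against 1042 to 1067 and the arterial markers to 589 against 458 to 477. In alendronate-treated aECs the metaphyseal sum was 156 to 174 against 233 to 259, and the 6 mural markers summed to 55.6 to 69.9 against 102 to 139. In PTH-treated aECs, where Jam3 was not called, the mural sum was 57.6 to 59.4 and the metaphyseal sum 372 to 436. The part of these in the values of Jam2 and Jam3 was not tested. Tjp1 rose in bmECs, to 194.8 and 195.0 from 167 and 149.8 (0.30, SE 0.055, adjusted p = 0.000151), and its rise in mpECs of 0.29 (adjusted p = 0.00244) was lost without adult replicate 2 (0.23, adjusted p = 0.0846) or alendronate replicate 2 (0.22, adjusted p = 0.107) and was 0.46 after thinning. Esam, F11r and Cdh5 were not called under alendronate in any class in the setting used.

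The other genes of endothelial junctions were read from 60 listed genes in 5 lists, of which 6 were not matched to a gene kept here. Among adherens junction genes, 9 were tested between classes. Pvrl2, which encodes nectin-2, measured 64.7 CPM in aECs and 329 in bmECs (-2.41, adjusted p = 6.91e-26). Mllt4, which encodes the nectin-binding scaffold afadin, measured 489.9 in rECs and 112 in bmECs (2.19, adjusted p = 4.41e-21), and Jup, which encodes plakoglobin, 213 in aECs and 344 in mpECs (-0.69, adjusted p = 5.18e-09). In rECs against bmECs 5 of these 9 were higher and 3 lower, with a median log2 fold change of 0.24 against -0.05 over all genes, of which 27.8% were called higher and 33.8% lower. In rECs against mpECs the direction was the other, with 3 higher and 5 lower (median -0.25 against -0.03, beside 21.3% and 25.8% of all genes).

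Among tight junction scaffolds and membrane proteins, 10 were tested between classes, and in aECs against bmECs 3 were higher and 6 lower (median -0.53 against -0.05 over all genes, of which 30.6% were called higher and 36.7% lower). Cgnl1, which encodes paracingulin, measured 42.8 CPM in rECs and 92.2 in aECs (-1.25, adjusted p = 1.05e-10). Magi3 measured 18.1 in aECs and 33.5 in bmECs (-0.96, adjusted p = 9.24e-10). Of 12 other claudins listed only 3 had enough UMIs for a test between classes. Cldn15, a claudin known to form paracellular pores, measured 58.9 CPM in rECs and 15.6 in bmECs (1.87, adjusted p = 5.53e-12), and Cldn25 60.0 and 93.9 (-0.59, adjusted p = 1.5e-08).

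Other junctional adhesion genes separated the classes further. Cxadr, which encodes the coxsackievirus and adenovirus receptor, an immunoglobulin-family protein related to the JAMs, measured 245 CPM in bmECs and 12.3 in mpECs, a log2 fold change of -4.32 in mpECs against bmECs (adjusted p = 2.31e-25). Icam2 measured 859 in aECs and 310.1 in bmECs (1.48, adjusted p = 1.23e-21), and Pecam1, the platelet endothelial adhesion molecule, 1467 in rECs and 598 in bmECs (1.30, adjusted p = 2.52e-21). Of the regulators of VE-cadherin junctions, Heg1, a receptor of the cerebral cavernous malformation complex, measured 711 CPM in aECs and 186 in bmECs (1.94, adjusted p = 2.18e-26), and the receptor phosphatase gene Ptprm 151 and 55.5 (1.45, adjusted p = 6.45e-23). Amotl1, of the angiomotin family, was lower in rECs (146 CPM) than in bmECs (299; -1.08, adjusted p = 5.14e-15). Of the 15 regulators tested, 7 were higher and 4 lower in aECs than in bmECs, and of the 5 other adhesion genes 2 were higher and 1 lower, beside 67.4% of all genes called in this pair, so that the numbers called set neither list apart.

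In aged cells scaffold genes were called higher in 8 of 11 tested in bmECs, with 1 lower, in 6 of 10 in mpECs, with 1 lower, in 5 of 10 in aECs, with 1 lower, and in 5 of 8 in rECs, with 0 lower. Of all genes, 33.7%, 33.4%, 29% and 24% were called higher in these classes and 33.3%, 32.6%, 29.9% and 22.7% lower. The median log2 fold change of the list was 0.59, 0.49, 0.68 and 0.60, against 0.02, 0.00, -0.02 and 0.00 over all genes. Magi3, a membrane-associated guanylate kinase, measured 62.2 CPM in aged rECs and 11.1 in adult rECs (2.47, adjusted p = 7.45e-08), Mpdz 62.5 and 18.8 (1.72, adjusted p = 4.27e-06), and Magi1 148 and 74.9 in mpECs (0.99, adjusted p = 1.83e-13). In rECs of all 10 libraries Magi3 had 258 UMIs and Mpdz 334, so that their adult rEC levels rest on few UMIs. The calls of these genes were not examined under the alternative settings. Adherens junction genes were called higher in 7 of 10 in bmECs, 5 of 9 in mpECs, 5 of 9 in aECs and 4 of 8 in rECs, and lower in 1, 2, 1 and 1, beside the same shares of all genes. Mllt4 was higher in aged mpECs (239 and 117 CPM, 1.03, adjusted p = 1.18e-17) and Jup in aged rECs (423 and 235 CPM, 0.84, adjusted p = 1.25e-06), whereas Pvrl2 was lower in aged aECs (31.9 and 66.8 CPM, -1.06, adjusted p = 5.76e-08). Pvrl2 was higher in bmECs than in aECs, and the 6 sinusoidal markers summed to 235 to 237 CPM in aged aECs against 460 to 508 in adult ones. The part of this in the Pvrl2 change was not tested.

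Of the regulators, 8 of 15 were called higher and 5 lower in aged bmECs, 7 of 14 higher and 3 lower in mpECs, 7 of 15 higher and 6 lower in aECs, and 6 of 13 higher and 2 lower in rECs, where 67%, 66%, 58.9% and 46.7% of all genes were called. Ptprb, which encodes the phosphatase VE-PTP, measured 1532 CPM in aged and 658 in adult rECs (1.22, adjusted p = 3.61e-12), and Arhgap29, a GTPase-activating protein, 487 and 217 in mpECs (1.16, adjusted p = 4.11e-21). Ccm2, of the cerebral cavernous malformation complex, was lower in aged bmECs (20.3 and 41.5 CPM; -1.03, adjusted p = 9.08e-09). Cldn15 was higher (40.6 and 14.5 CPM, 1.49, adjusted p = 8.43e-12) and Cldn25 lower (62.1 and 102 CPM, -0.72, adjusted p = 1.2e-09) in aged mpECs. Icam2 (372 and 623 CPM, -0.74, adjusted p = 3.18e-16) and Cxadr (7.42 and 18.9 CPM, -1.36, adjusted p = 4.11e-07) were lower in aged mpECs, and Pvr, a nectin-like protein gene, in aged rECs (31.9 and 51.8 CPM, -0.71, adjusted p = 0.0189). Cxadr was higher in bmECs than in mpECs, and the 6 sinusoidal markers summed to 751 to 774 CPM in aged mpECs against 1042 to 1067 in adult ones. The part of this in the Cxadr change was not tested.

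Genes whose levels ran most alike over the 40 sums of class and library were ranked by Pearson's correlation of log2(CPM + 1) among 6658 genes. The 40 sums share libraries, depth and classes, and the correlations are given as a description. Jam2 ran with Tcf15 (r = 0.98), a transcription factor gene, Clic5 (r = 0.97) and Itpkb (r = 0.97), and Jam3 with St5 (r = 0.93), Vwa1 (r = 0.92) and St8sia4 (r = 0.91). Tjp1 ran with Shank3 (r = 0.92), Rif1 (r = 0.91) and Luc7l3 (r = 0.90), and Esam with Tmem66 (r = 0.94), Yipf4 (r = 0.90) and Ywhaq (r = 0.90). For Cldn5 the genes were Rom1 (r = 0.87), Tnfrsf26 (r = 0.85) and Msrb2 (r = 0.83), for Cdh5 Gpihbp1 (r = 0.80), Arhgap27 (r = 0.75) and Neurl1b (r = 0.74), and for F11r Traf7 (r = 0.74), Mapre1 (r = 0.73) and Lmf2 (r = 0.71). Among the members, Jam2 and Jam3 had an r of 0.82, Esam and Tjp1 one of -0.59 and Cldn5 and Tjp1 one of -0.52.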

How the data were processed

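Sorted endothelial cells of 10 libraries were read from tables of UMI counts, which the authors deposited as 1 table of genes by cells per library. Per the labels and the study's methods, the authors made them with UMI-tools 1.1.2, STAR 2.7.10a and featureCounts 2.0.3 on mm10. The annotation release and the use of strand are not given in the sources used here. UMI counting limits amplification bias, and 3′ counting reads the ends of transcripts, so that isoforms are not resolved and levels are compared without a correction for length.

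Cells with 500 to 6000 genes and under 25% mitochondrial UMIs were kept (46283 of 47466). The 276 gene names listed by the aged libraries alone were left out. Cells were clustered with Seurat 5.3.0 (integration by reciprocal principal components, 2000 features, 30 components, resolution 0.5), with 151 junction and cell-cycle genes held out, and a cluster was named from marker lists. Doublets were not removed. UMIs were summed by class and library (40 sums, at least 20 cells each) and tested with the quasi-likelihood test of edgeR 4.0.16 in R 4.3.3, with TMM scaling and Benjamini-Hochberg adjustment over all genes tested, and an adjusted p under 0.05 was called. Class pairs had the library as a block. CPM values were scaled over all 4 classes for class pairs, within a class for group tests, and not scaled for clusters. Confidence in shares and limits covers counting error only.

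The members were named in every comparison. Of each other junction list, up to 3 genes by absolute log2 fold change among those called with a mean of at least 20 CPM over the 40 sums were named for class pairs and for group tests, and for each member the 3 genes with the highest correlation. A gene that this rule named is not reported here. The members and lists were chosen with earlier results of these data known. Alternatives covered scaling, the filter on low counts, DESeq2 1.42.0, the resolution, classes by marker UMIs, doublets (1954 cells), a stricter cell filter (at least 1000 genes and under 10% mitochondrial UMIs), thinning, shallow clusters (chosen after seeing the data), the replicate number as a block and leaving out each library. The scripts were tested on simulated data with known changes.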

Additional observations from a re-analysis of the deposited data

Results flagged for a closer look

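A difference from adult that itself differs between the 4 endothelial classes was looked for by an interaction test in edgeR over all genes, in which 13 of the 28 tests of members were called, beside 9.67% of all genes for juvenile, 19.9% for aged, 6.26% for PTH and 3.03% for alendronate. In juvenile cells the change of Cdh5 (adjusted p = 1.35e-08), of Cldn5 (adjusted p = 1.8e-25) and of Jam2 (adjusted p = 2.94e-05) differed between classes. Relative to bmECs the juvenile change of Cldn5 was higher by 0.93 on the log2 scale in mpECs, 0.61 in aECs and 1.55 in rECs.

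In aged cells the changes of Cdh5 (adjusted p = 0.0272), Cldn5 (adjusted p = 0.000123), Jam2 (adjusted p = 2.79e-07) and Jam3 (adjusted p = 2.33e-09) differed between classes. The aged change of Jam3 relative to bmECs was 0.25 in mpECs, -1.09 in aECs and -0.45 in rECs, with a bmEC level that could not be told from background. Under PTH the changes of Cdh5 (adjusted p = 0.00487), Cldn5 (adjusted p = 1.53e-07), Esam (adjusted p = 0.000902), Jam2 (adjusted p = 4.76e-07) and Jam3 (adjusted p = 0.000187) differed, with relative changes in rECs of -0.21, 0.57, -0.15, -0.92 and -0.80. Under alendronate the change of Cldn5 alone differed (adjusted p = 0.00016), by 0.04 in mpECs, 0.29 in aECs and 0.38 in rECs relative to bmECs. All 5 PTH interactions were lost when classes were taken by marker UMIs in place of clusters.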

How the results depend on the processing

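Of 154 differences of members tested, 83 were called, of which 49 kept their call under every alternative run and 34 lost it under at least 1. Calls were lost by 20 differences when classes were taken by UMIs of marker genes, 16 after thinning to 1000 UMIs, 13 without adult replicate 2, 9 with DESeq2, 7 without a filter on low counts, 7 with the stricter cell filter, 6 without adult replicate 1 and at most 4 under any other alternative over all 10 libraries or without a library. Sign changes in which neither value was called numbered 92. The direction of Cdh5 in rECs against mpECs turned from -0.06 to 0.19 at both other cluster resolutions (adjusted p = 0.0105 at 0.3 and 0.00918 at 0.8). The cause was not tested.

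With classes taken by marker UMIs, 3 PTH differences were called in place of 9 and 0 PTH interactions in place of 5, with fewer cells by construction. That setting left 20408 of 46283 cells in no class, and held 1147 rECs in place of 3495 and 3888 aECs in place of 6966. Shares of all genes called under the alternatives are not given here, so these counts do not set the members apart from other genes. After thinning, 4 differences were called for PTH in place of 9 and 4 for alendronate in place of 8, with fewer UMIs by construction. With relative log expression scaling, 2 alendronate interactions were called in place of 1. In the 6 libraries of the age groups alone, 2 of the members differed between aECs and mpECs in place of 5, with fewer libraries by construction. Leaving out 1 library at a time gave 10 to 16 calls for juvenile, 17 to 21 for aged, 5 to 9 for PTH and 5 to 10 for alendronate, and among class pairs 5 to 6 for mpECs against bmECs, 5 to 6 for aECs against bmECs, 5 to 7 for rECs against bmECs, 5 for aECs against mpECs, 4 to 5 for rECs against mpECs and 6 for rECs against aECs. Interactions called ranged from 3 to 4 for juvenile, 3 to 4 for aged, 3 to 5 for PTH and 1 to 2 for alendronate.

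Thinned to 2000 UMIs, the shares of cells with a UMI in bmECs, mpECs, aECs and rECs were 89.0%, 84.5%, 83.7% and 62.7% for Cldn5, 5.75%, 28.0%, 44.1% and 63.9% for Jam2, and 2.84%, 16.2%, 8.42% and 20.6% for Jam3. Erythroid cells had 3.73% for Jam2 and 2.17% for Jam3 at this depth, and Elane-led cells 2.80% and 1.05%. Their differences from bmECs were not tested. The replicate number as a block kept all 51 of 51 group calls and added 0, and libraries with the same number did not deviate together (correlations of -0.0388 to 0.0606 over 16 comparisons). Depth limits Ocln, which could not be tested, and Jam2 and Jam3 in bmECs.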
